A study of Homo sapiens with 6 samples.

Results

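The lysyl oxidase family is described here in K562 cells, a human erythroid leukemia line, with and without induced Flag-PCBP1. Its 5 genes, LOX, LOXL1, LOXL2, LOXL3 and LOXL4, were picked by gene symbol from 62252 genes, and they were selected on earlier results of this same comparison. Their differences between the groups are therefore given as a description, with no p-value. Both groups came from K562flox cells, a single clone with a lox-flanked blasticidin cassette at the AAVS1 locus, into which recombinase-mediated cassette exchange placed Flag-PCBP1 behind a tet-inducible promoter, with puromycin resistance. The line was polyclonal after that exchange. The control group (−Dox) received no doxycycline and the PCBP1 overexpression group (+Dox) did, with 3 libraries in each. Effects of Dox itself and of Flag-PCBP1 cannot be told apart between these groups. The dose and time of Dox for these libraries are not given in the sources used here, nor whether replicates were separate cultures, so p-values measure only the spread between these libraries.

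Polyadenylated RNA was sequenced, and the summed estimated counts were 84177316, 80104627 and 74766040 in −Dox replicates 1 to 3 and 70905656, 82263502 and 82449808 in +Dox replicates 1 to 3. As a check of the labels, PCBP1 mRNA was at 247.5, 269.5 and 266.9 CPM (counts scaled to a common library size after TMM normalization) in −Dox and at 1030, 936 and 1037 CPM in +Dox. The PCBP1 level thus separated the groups in the direction of their labels.

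Lysyl oxidases are secreted, copper-dependent amine oxidases. They oxidize lysine side chains of collagen and elastin to aldehydes, which then form the crosslinks that give connective tissue its strength. The catalytic domain carries a lysine tyrosylquinone cofactor and is shared by all members. LOX and LOXL1 are made as proenzymes and are cut outside the cell, whereas LOXL2, LOXL3 and LOXL4 carry scavenger receptor cysteine-rich domains in front of the catalytic domain. The family is best known from fibroblasts and smooth muscle, and from tumors with a stiff matrix, rather than from blood cells grown in suspension.

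LOXL4 (ENSG00000138131.4) was the member with the greatest difference between the groups. It lies on chromosome 10 of GRCh38, chr10:98247690-98268194 on the minus strand, and has 1 annotated transcript, LOXL4-201, of 3597 bases in 15 exons. That transcript held 100% of the gene's counts and TPM in each library, so no shift between isoforms can be seen for this gene. The rounded counts were 11, 30 and 14 in −Dox and 329, 421 and 339 in +Dox. Scaled to library size, this was 0.130, 0.385 and 0.187 CPM in −Dox and 4.64, 4.98 and 4.18 CPM in +Dox. The groups did not overlap, and the lowest +Dox library stood far above the highest −Dox library. From −Dox to +Dox the mean went from 0.234 ± 0.134 to 4.60 ± 0.403 CPM (SD, n = 3 each), a ratio of 19.6. The log2 fold change was 4.29 with a standard error of 0.29 (edgeR). In a bulk library, more cells that express a gene and more RNA per cell cannot be told apart.

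The −Dox value of LOXL4 rested on 55 counts over 3 libraries, and −Dox replicate 2 held 30 of them. Leaving out that library gave a log2 fold change of 4.85, and leaving out −Dox replicate 1 gave 3.99. Its log2 fold change stood at place 18 from the top among the 21045 genes tested, which is given as a description, since the gene was chosen for this difference. Per transcript length, its mean TPM (an abundance scaled for transcript length and depth) exceeded that of 2.9% of the tested genes in −Dox and of 37.1% in +Dox. LOXL4 mRNA therefore went from among the lowest genes tested to the lower middle of the range.

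Because LOXL4 stood apart from the other members, the sequence upstream of its start is shown, 250 bases credited to RefSeq (GRCh38.p14, chr10:98268195-98268444, minus strand, written 5′ to 3′ toward the start site). Capitals mark matches to GATAA and GGGCGG on either strand.
LOXL4 upstream window: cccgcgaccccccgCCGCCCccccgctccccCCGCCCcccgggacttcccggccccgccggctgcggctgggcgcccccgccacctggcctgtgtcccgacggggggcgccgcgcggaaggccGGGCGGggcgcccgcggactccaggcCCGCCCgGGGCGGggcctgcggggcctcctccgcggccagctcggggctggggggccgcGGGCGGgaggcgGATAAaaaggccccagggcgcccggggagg

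The window was 86.4% G and C, above 99.8% of 35116 upstream windows of the same length, whose median was 58%. It held 6 matches to GGGCGG, the GC box of Sp1-type factors, of which 42.6% of all windows had at least 1. It held 1 match to GATAA, the core of the site bound by GATA factors such as the erythroid factor GATA1, from 30 to 26 bases before the start, and 20.4% of all windows held that motif. Neither ACGTG, the core of the hypoxia response element (18.5% of windows), nor TATAAA, the TATA box (10.7%), was found on either strand. With the next base the GATAA match reads GATAAA, which differs from TATAAA only in its first letter. Which factor binds there, if any, was not tested. The first listed window of LOX, by comparison, was 55.2% G and C and held 4 matches to ACGTG. The other windows of LOX were 61.2% and 66.4% G and C and held 1 match to ACGTG each. The windows of LOXL1 and LOXL3 held no GATAA. The motifs were chosen with the sequence in view, and a match is a string of letters only.

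PCBP1 binds RNA through KH domains that prefer runs of cytosine. The cytosine content of each member's most counted transcript was therefore read from GENCODE. It was 28.0% in LOXL4, 29.2% in LOXL2, 27.3% in LOXL3, 20.8% in LOX and 34.9% in LOXL1, against a median of 23.65% over the transcripts of 21045 tested genes. Runs of 3 or more cytosines came at 16.4 per kilobase in LOXL4, 18.3 in LOXL2, 18.7 in LOXL3, 8.47 in LOX and 32.7 in LOXL1, against a median of 12.7. The LOXL1 values are those of LOXL1-203, a model annotated as nonsense-mediated decay. It was picked on 1.03 estimated counts in −Dox replicate 3 and 8 in +Dox replicate 3, with 0 elsewhere. LOXL2, LOXL3 and LOXL4 lay near each other in both measures. Whether cytosine content bears on the levels of these genes was not tested. Binding of PCBP1 to these RNAs was not measured in the libraries used here. For 3 members the coding stretch of 30 bases with the most cytosines is given, 5′ to 3′ on the RNA strand with runs of 3 or more C in capitals, to show how such runs lie in them. The LOX stretch, in exon 1 of 7 (chr5:122077892-122077921), has 19 C, the LOXL3 stretch, in exon 5 of 14 (chr2:74536843-74536872), 15 C, and the LOXL4 stretch, in exon 2 of 15 (chr10:98262980-98263009), 16 C.
LOX: CCCCtCCCgccgccggccaacagcagCCCC
LOXL3: gcacggaggCCCacctctCCCtctgttCCC
LOXL4: CCCCaccagccaCCCtctttctgttcctgc

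**Figure D1:**
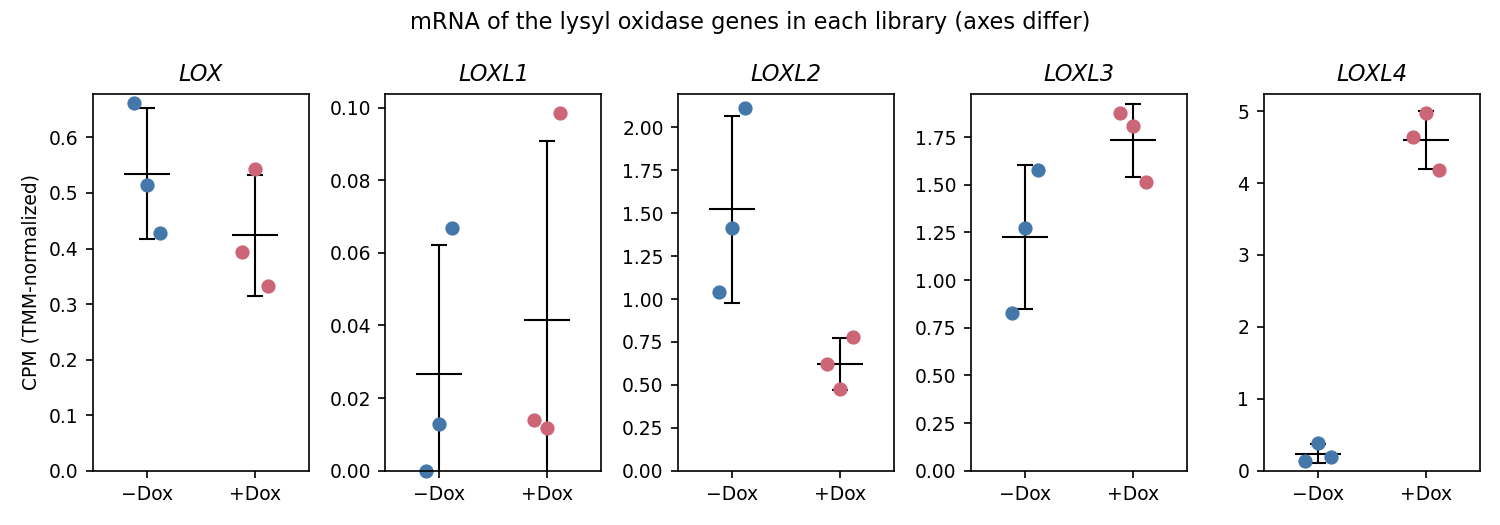
CPM of each lysyl oxidase gene in the 3 −Dox and the 3 +Dox libraries, with one linear axis per gene. Points are libraries, the long horizontal line is the mean and the bars are 1 SD (those of LOXL1 run below the axis). The LOXL4 points separate, from at most 0.385 CPM in −Dox to at least 4.18 CPM in +Dox, the LOXL2 points separate in the other direction, and those of LOX, LOXL1 and LOXL3 overlap.

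LOXL2, which also acts on basement membrane collagen, was lower in +Dox. Its counts were 88, 110 and 158 in −Dox and 44, 40 and 63 in +Dox, or 1.04, 1.41 and 2.11 CPM against 0.620, 0.473 and 0.776 CPM. The groups did not overlap, although the lowest −Dox library and the highest +Dox library were near each other. From −Dox to +Dox the mean went from 1.52 ± 0.546 to 0.623 ± 0.152 CPM (SD, n = 3 each), a ratio of 2.44 in favor of −Dox. The log2 fold change was −1.29, with a standard error of 0.30 (edgeR). It was −0.98 without −Dox replicate 3, the highest library, and LOXL2 then no longer passed the limits for a differentially expressed gene (DEG), which were 0.05 for the adjusted p and 1 for the size of the log2 fold change. It also missed them with an offset for transcript length, at −1.28 with a standard error of 0.44. LOXL2 (ENSG00000134013.16) lies at chr8:23296897-23425328 on the minus strand of GRCh38.

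LOXL3, whose loss in humans and mice affects cartilage and the palate, was at 0.827, 1.27 and 1.58 CPM in −Dox and 1.87, 1.81 and 1.52 CPM in +Dox, on 70, 99 and 118 counts against 133, 153 and 123. The groups overlapped through −Dox replicate 3 and +Dox replicate 3. Its log2 fold change was 0.50 with a standard error of 0.24 (edgeR). On leaving out each library it ran from 0.28, without −Dox replicate 1, to 0.72, without −Dox replicate 3. LOXL3 (ENSG00000115318.12) lies at chr2:74532258-74555690, minus strand.

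LOX, the founding member of the family and a known target of hypoxia-inducible factors, was at 0.662, 0.514 and 0.428 CPM in −Dox and 0.395, 0.544 and 0.333 CPM in +Dox, on 27 to 56 counts a library. The groups overlapped, with +Dox replicate 2 above 2 of the 3 −Dox libraries. The log2 fold change was −0.33 with a standard error of 0.36 (edgeR). Without +Dox replicate 2 the value was −0.56, without −Dox replicate 1 it was −0.15 and without +Dox replicate 3 it was −0.19, and with the transcript length offset it was −0.094. LOX (ENSG00000113083.15) lies at chr5:122063195-122078413, minus strand.

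LOXL1, which acts mainly in the upkeep of elastic fibers, was close to absent. Its counts were 0, 1 and 5 in −Dox and 1, 1 and 8 in +Dox, with a mean of 2.67 over the 6 libraries, and it was not tested. A count of 0 in −Dox replicate 1 allows up to 3 counts, or 0.0354 CPM, and covers counting error only. In each group the replicate with the most counts, −Dox 3 and +Dox 3, held most of the group's total. LOXL1 (ENSG00000129038.16) lies at chr15:73925989-73952137, plus strand.

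Of the 5 members, 4 passed the filter of a mean count above 10 and were among 21045 genes tested. By the limits for a DEG, 1 member was higher in +Dox (LOXL4) and 1 lower (LOXL2), while LOX and LOXL3 passed neither limit. The background over all genes tested was 1.46% for DEGs, with 0.737% higher and 0.727% lower, and groups that did not overlap were found for 33.2%. Since the family was chosen with this contrast known, nothing is read from the members' count. The median log2 fold change over all tested genes was 0.0061. TMM scaling places it near no difference by construction, so it is no check of the scale.

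Levels can be set side by side between genes only per length, and the TPM values are used for that. In −Dox, LOXL2 came first at 0.853 ± 0.522 TPM (SD, n = 3), then LOXL3 at 0.373 ± 0.104, LOX at 0.119 ± 0.0250, LOXL4 at 0.0601 ± 0.0323 and LOXL1 at 0.0216 ± 0.0331 TPM. The ranges of LOXL2 and LOXL3 overlapped, as did those of LOX and LOXL4 and those of LOXL4 and LOXL1, and only LOXL3 and LOX did not. In +Dox, LOXL4 came first at 1.17 ± 0.144 TPM (SD, n = 3), above LOXL3 at 0.501 ± 0.0902, LOXL2 at 0.344 ± 0.0946, LOX at 0.111 ± 0.0607 and LOXL1 at 0.0260 ± 0.0185 TPM. There the ranges of LOXL3 and LOXL2 overlapped, and the other neighbors in the order did not. LOXL4 thus moved from the 4th to the 1st place, and LOXL2 from the 1st to the 3rd.

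Summed over the 5 genes, lysyl oxidase mRNA was at 0.838, 2.03 and 1.41 TPM in −Dox and 2.10, 2.53 and 1.82 TPM in +Dox. In TPM the groups overlapped, since −Dox replicate 2 was above +Dox replicate 3. Most of the LOXL2 level of that −Dox library came from short models, as given below. In CPM per kilobase of the main transcript the sums did not overlap. On that scale LOXL4 was at least 1.16 and LOXL3 at least 0.411 in each +Dox library. In −Dox, LOXL2 was at most 0.568, LOXL3 0.428, LOX 0.130, LOXL4 0.107 and LOXL1 0.0240. Without LOXL4 the sum was 1.37 ± 0.567 TPM (SD, n = 3) in −Dox and 0.982 ± 0.216 TPM (SD, n = 3) in +Dox. In TPM, the size of the sum did not separate the groups, while the shares of LOXL4 and LOXL2 in it did. LOXL4 made up 4.17%, 4.75% and 3.47% of it in −Dox and 54.8%, 52.1% and 56.8% in +Dox. LOXL2 made up 47.6%, 70.0% and 52.3% in −Dox and 13.9%, 17.9% and 15.8% in +Dox. The share of LOXL3 was 27.9% ± 7.82 in −Dox and 23.3% ± 1.66 in +Dox (SD, n = 3 each). LOX made up 16.9%, 6.02% and 6.54% in −Dox and 4.19%, 7.11% and 3.60% in +Dox, with overlapping groups, and LOXL1 made up at most 4.24% of any library.

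**Figure D2:**
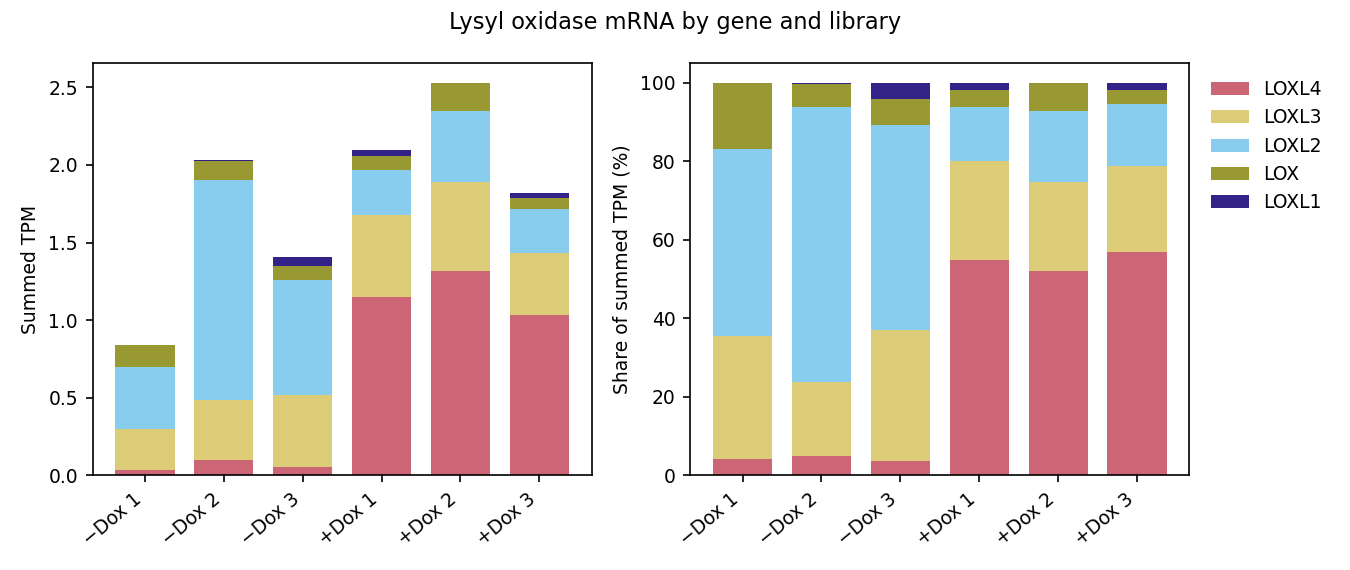
Lysyl oxidase mRNA in each of the 6 libraries, as TPM summed over the 5 genes (left) and as the share of each gene in that sum in percent (right). Each bar is 1 library and each color a gene. LOXL4 fills at most 4.75% of a −Dox bar and at least 52.1% of a +Dox bar, and LOXL2 has the largest part of every −Dox bar.

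The transcripts of the other members differed in how evenly the libraries were covered. GENCODE lists 15 transcripts for LOXL2, of which 8 had counts in a library and 7 were listed at 0. The full-length LOXL2-201, of 3721 bases, was at 0.241, 0.231 and 0.484 TPM in −Dox and 0.117, 0.0904 and 0.168 TPM in +Dox, so this transcript was lower in each +Dox library than in any −Dox library. The summed LOXL2 level of −Dox replicate 2, 1.42 TPM against 0.398 and 0.736 TPM in the other −Dox libraries, came mostly from short models. Of these, LOXL2-213, a retained-intron model of 419 bases, held 0.445 TPM on 6.77 estimated counts, and LOXL2-207, of 620 bases, held 0.381 TPM on 13.0 counts. On the CPM scale, which does not divide by length, that library lay between the other −Dox libraries.

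LOXL3 had counts on 4 of its 10 transcripts. Its full-length LOXL3-201, of 3689 bases, was at 0.0826, 0.141 and 0.183 TPM in −Dox and 0.209, 0.212 and 0.283 TPM in +Dox, and here the groups did not overlap, unlike for the gene as a whole. The retained-intron model LOXL3-208 took 28.9, 37.1 and 40.7 estimated counts in −Dox and 28.0, 47.4 and 0 in +Dox. The 0 in +Dox replicate 3 stood against 95.3 counts for LOXL3-201, the highest of any library. Estimates for single transcripts at these counts depend on how Salmon divided shared reads, which was not tested. Of the 6 LOX transcripts, LOX-201, of 5076 bases, took from 24.6 to 56.0 estimated counts a library and LOX-202 took 11.1 in +Dox replicate 2 and at most 2.65 elsewhere. Of the 5 LOXL1 transcripts, 4 had a count in at least 1 library.

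**Figure D3:**
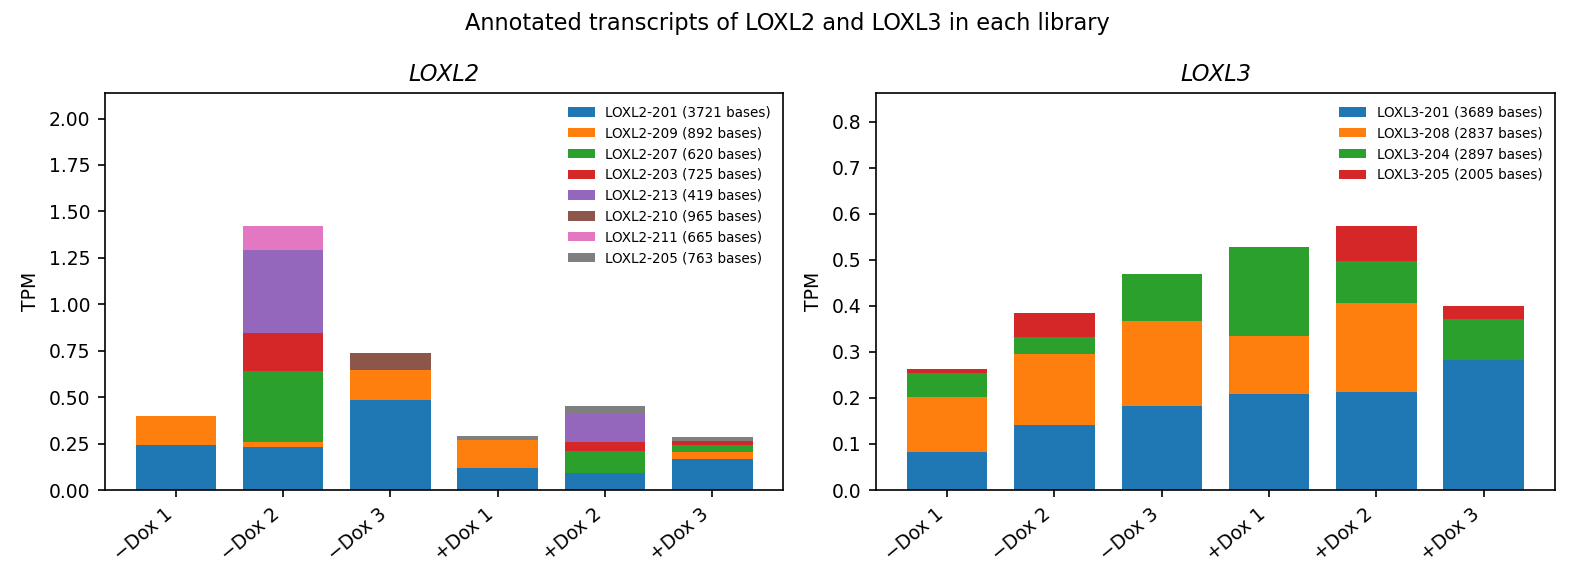
TPM of the transcripts of LOXL2 (left) and LOXL3 (right) that had counts, stacked per library. Each bar is 1 library and each color a transcript with its length. The −Dox 2 bar of LOXL2, at 1.42 TPM, is mostly made of models of at most 892 bases, while LOXL2-201 (bottom) is lower in all 3 +Dox bars.

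Of the genes around LOXL4, the nearest tested gene on each side and 1 overlapping gene were read. R3HCC1L, 2793 bases away on the other strand, was at 21.7 ± 1.1 CPM (−Dox) and 22.9 ± 1.35 CPM (+Dox) (SD, n = 3 each), with a log2 fold change of 0.077 (adjusted p = 0.496, edgeR). PYROXD2, 115371 bases away on the other side, was at 0.202 ± 0.0535 CPM (−Dox) and 0.200 ± 0.164 CPM (+Dox) (SD, n = 3 each). On the strand opposite to LOXL4, the lncRNA gene ENSG00000230928 (chr10:98252023-98256575) overlaps 152 bases of LOXL4 exon 10 of 15 (chr10:98255588-98255739), which is 4.23% of the exon bases of LOXL4. It had 0 counts in each −Dox library and 17, 12 and 14 counts in +Dox, or 0.240, 0.142 and 0.172 CPM. Against a floor of 3 counts over the −Dox group, or 0.0126 CPM, its mean was at least 14.6-fold higher in +Dox. Those counts were 3.95% of the counts of LOXL4 in the same libraries. Whether the counting used strand is not given in the sources used here, so reads of the pair cannot be told apart where they overlap. With a mean count of 7.17 this gene was below the filter and was not tested.

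Next to the other members, 2 of the 8 nearest tested genes had an adjusted p under 0.05, which 15.8% of all genes tested had. STOML1, a stomatin-like membrane protein gene 26789 bases from LOXL1, rose from 3.25 ± 0.154 to 4.49 ± 0.633 CPM (SD, n = 3 each; log2 fold change 0.46, adjusted p = 0.0375, edgeR), a call that 5 of 12 other settings lost. AUP1, a lipid droplet and endoplasmic reticulum protein gene 2498 bases from LOXL3, fell from 141.3 ± 6.27 to 124.1 ± 2.24 CPM (SD, n = 3 each; log2 fold change −0.19, adjusted p = 0.0182, edgeR), and 5 of 12 other settings lost that call too. HTRA2, on the opposite strand, shares 20.7% of the exon bases of LOXL3 and was at 42.5 ± 3.97 CPM (−Dox) and 44.9 ± 2.01 CPM (+Dox). Reads in that stretch could therefore be split between the pair. DOK1 shares 4.78% of the LOXL3 exon bases, at 17.0 ± 0.624 and 15.9 ± 0.635 CPM. LOXL1-AS1 shares 9.21% of those of LOXL1 and was at 0.640 ± 0.170 and 0.828 ± 0.153 CPM. SRFBP1 shares 2.47% of the exon bases of LOX, and LOXL2-AS1 and ENTPD4 share 2.97% and 2.01% of those of LOXL2.

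The genes with a pattern most like that of LOXL4 were sought among 16373 genes with a mean of at least 0.5 CPM, by the root mean square difference over the 6 libraries of log2 CPM centered on each gene's mean. The closest was the pseudogene RPL23AP24, at 0.919, with 0 CPM in each −Dox library and 2.40, 0.993 and 0.714 CPM in +Dox. It is a copy of a ribosomal protein gene, and its counts are uncertain for that reason. It also passed the filters only through +Dox. CRISP3, a secreted cysteine-rich protein, came next at 0.926, with 1.17 ± 0.0746 CPM in −Dox and 7.49 ± 0.482 CPM in +Dox (SD, n = 3 each). EPB42, the red cell membrane protein 4.2, was at 0.963, with 0.252 ± 0.0951 CPM and 1.79 ± 0.571 CPM. AQP10, a channel for water and glycerol, was at 1.15, with 0.875 ± 0.239 CPM and 3.57 ± 0.573 CPM. FAXDC2, a gene of the fatty acid hydroxylase superfamily, was at 1.17, with 23.9 ± 1.37 CPM and 99.1 ± 2.86 CPM. These 5 were chosen for their likeness in the same libraries, so no test is attached to them. None of them was a close match, since the 5 genes nearest to LOXL2 by this measure were at 0.169 to 0.201. The log2 fold change was 9.75 for RPL23AP24, 2.67 for CRISP3, 2.83 for EPB42, 2.03 for AQP10 and 2.05 for FAXDC2, against 4.29 for LOXL4.

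The substrates of lysyl oxidases were examined next. Of 27 fibrillar collagen and elastic fiber genes, 18 were tested, and 3 rose and 0 fell at an adjusted p under 0.05 (16.7% of those tested). Of the 15.8% of all genes that passed that threshold, those higher in +Dox were 8.16% of the genes tested and those lower were 7.68%. The median log2 fold change of the list was 0.12. FBLN2, an elastic fiber and basement membrane protein, was at 0.0236, 0.103 and 0.107 CPM in −Dox and 0.550, 0.284 and 0.542 CPM in +Dox, and it was the one DEG (log2 fold change 2.55, standard error 0.59, adjusted p = 0.0108, edgeR). It passed the count filter only through +Dox, with 2, 8 and 8 counts in −Dox and 39, 24 and 44 in +Dox, so no weight is placed on that call. DESeq2 gave it no adjusted p, and it was not among the genes with at least 10 counts in every library. Both of those settings called 2 genes of the list. The latent TGF-beta binding proteins LTBP1 (22.7 ± 0.578 to 29.2 ± 0.0889 CPM, adjusted p = 6.44e-04) and LTBP4 (65.6 ± 0.505 to 79.3 ± 2.99 CPM, adjusted p = 0.00217) rose by 0.37 and 0.27 on the log2 scale (edgeR, SD, n = 3 each). With the transcript length offset these were 0.024 (adjusted p = 0.905) for LTBP1 and 0.21 (adjusted p = 0.0688) for LTBP4. The main targets of LOX were hardly present. COL1A1 was on average at 1.68 CPM without and 1.87 CPM with Dox and COL3A1 at 0.134 and 0.162 CPM, while COL1A2 and elastin (ELN) were among the 9 genes below the filter.

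Of 25 basement membrane genes, 18 were tested, of which 3 rose and 2 fell (27.8%, against 15.8% of all genes tested), with a median log2 fold change of −0.12. COL18A1, the precursor of endostatin, rose from 18.3 ± 0.433 to 30.7 ± 1.47 CPM (SD, n = 3 each; adjusted p = 5.38e-06, edgeR). COL15A1, a related collagen, fell from 4.70, 5.67 and 7.04 CPM to 2.38, 2.52 and 3.47 CPM and was the one DEG (log2 fold change −1.05, standard error 0.18, adjusted p = 0.00157, edgeR). COL15A1 missed the fold limit for a DEG with the transcript length offset (−0.998) and without −Dox replicate 3 (−0.893). The same held without +Dox replicate 1 (−0.95) or +Dox replicate 2 (−0.98), while its adjusted p stayed under 0.05 in all 12 other settings. COL4A5, a type IV collagen chain, rose by 0.60 on the log2 scale (adjusted p = 0.00187, edgeR), and SPARC, a collagen-binding matrix glycoprotein, rose by 0.74 (adjusted p = 0.00589, edgeR), or by 1.56 with the transcript length offset. HSPG2, which encodes perlecan, fell by 0.19 (adjusted p = 0.0310, edgeR), a call that 6 of 12 other settings lost.

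Of 30 genes for collagen modification and maturation, 25 were tested, of which 4 rose and 5 fell (36.0%, against 15.8% of all genes tested), none of them a DEG (1.46% of all genes), with a median log2 fold change of −0.022. Over the 12 other settings 6 to 9 of the list passed, with 2 to 4 of them higher. PLOD2 and P4HA2, a lysyl and a prolyl hydroxylase, rose as well, and each lost its call in 9 of those settings. COLGALT1, a collagen galactosyltransferase, fell by 0.17 on the log2 scale (adjusted p = 0.0292, edgeR) and lost its call in 6. These 3 genes were named after their values were seen. FN1, fibronectin, on which LOX and collagen assemble outside the cell, was at 15.9, 14.1 and 18.2 CPM in −Dox and 7.75, 8.92 and 8.67 CPM in +Dox and fell by 0.92 on the log2 scale (adjusted p = 6.0e-05, edgeR). CRTAP, part of the prolyl 3-hydroxylation complex, rose from 56.5 ± 2.42 to 74.4 ± 3.89 CPM (SD, n = 3 each; adjusted p = 4.44e-04, edgeR). TGM2, a transglutaminase that crosslinks by another chemistry, rose from 62.8 ± 4.91 to 84.1 ± 1.96 CPM (adjusted p = 4.47e-04, edgeR). ADAMTS14, a procollagen peptidase, fell from 118.3 ± 6.09 to 93.5 ± 3.29 CPM (adjusted p = 8.59e-04, edgeR), and P3H3 and SERPINH1, a prolyl hydroxylase family member and the collagen chaperone HSP47, fell by 0.54 and 0.27 on the log2 scale (adjusted p = 0.00419 and 0.00488, edgeR). BMP1, the protease that releases active LOX, was on average at 17.7 CPM without and 16.3 CPM with Dox and did not pass (adjusted p = 0.244, edgeR).

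Lysyl oxidases take up copper in the secretory pathway. Of 27 copper handling genes and other copper enzymes, 22 were tested, of which 2 rose and 1 fell (13.6%, near the 15.8% of all genes tested), with a median log2 fold change of −0.031. SOD3, the extracellular superoxide dismutase, was at 0.0945, 0.154 and 0.201 CPM in −Dox and 0.846, 0.319 and 0.505 CPM in +Dox and was a DEG (log2 fold change 1.88, standard error 0.50, adjusted p = 0.0219, edgeR), but the call was lost on leaving out any of 4 libraries, with the highest adjusted p, 0.126, without +Dox replicate 1. CCS, the copper chaperone of superoxide dismutase, rose by 0.30 on the log2 scale (adjusted p = 0.0229, edgeR), and SCO1, which delivers copper to cytochrome oxidase, fell by 0.28 (adjusted p = 0.00301, edgeR). With the transcript length offset both missed the threshold, at adjusted p = 0.0726 for CCS and 0.119 for SCO1, and CCS also missed it on leaving out any of 3 libraries. ATP7A, the pump that loads copper into lysyl oxidases, was on average at 68.6 CPM without and 75.8 CPM with Dox (log2 fold change 0.14, adjusted p = 0.252, edgeR), and ATOX1, its chaperone, at 31.9 CPM in both groups. BMP1, ATP7A, ATOX1, COL1A1, COL1A2, COL3A1 and ELN are named for their role and were added after their values were seen.

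LOXL2 and LOXL3 are also known to act with the repressor SNAI1 on the E-cadherin gene. Of 9 genes tied to that role, 5 were tested, of which 0 rose and 1 fell (20%, against 15.8% of all genes tested), with a median log2 fold change of −0.12. The 1 gene was VIM, vimentin, which fell from 280.6 ± 29.1 to 206.7 ± 11.8 CPM (SD, n = 3 each; log2 fold change −0.44, adjusted p = 9.61e-04, edgeR). E-cadherin (CDH1) itself had a mean of 0.0898 CPM in −Dox and 0.0646 CPM in +Dox and was not tested, and it was named after its values were seen.

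**Figure D4:**
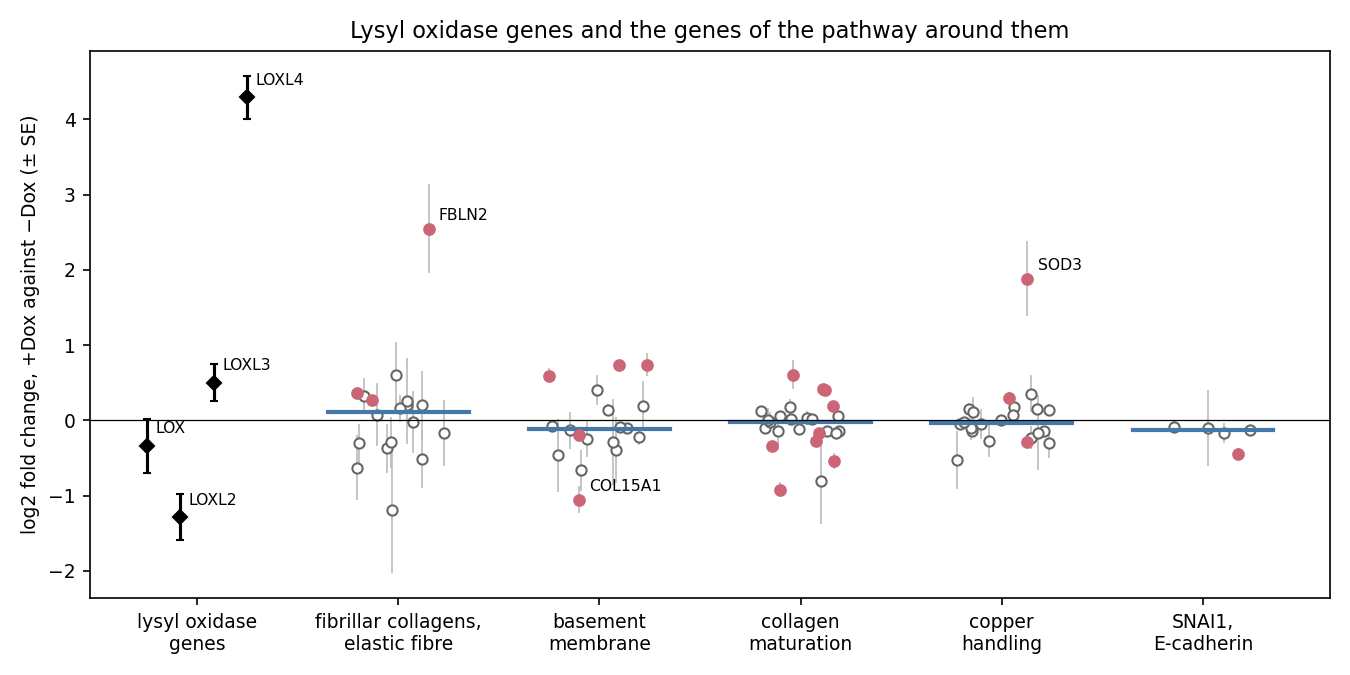
Log2 fold change (+Dox against −Dox) of the 4 tested lysyl oxidase genes (diamonds) and of the tested genes of 5 lists (circles), with bars of 1 standard error. Filled circles had an adjusted p under 0.05, named circles are the DEGs and blue lines are list medians. LOXL4, at 4.29, lies above every list gene, and the list medians lie between −0.12 and 0.12.

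Since fibroblasts and endothelial cells make lysyl oxidases, markers of these and of other cells were read in each library. Of 9 fibroblast markers 3 were tested and none passed, and their summed level was 0.933, 0.965 and 1.04 TPM in −Dox and 1.32, 1.13 and 0.666 TPM in +Dox. COL1A1 was the most abundant of them, and LUM and FAP were at 0 in every library. Of 8 endothelial markers 4 were tested and none passed, with sums of 1.41, 1.55 and 3.43 TPM in −Dox and 1.85, 1.67 and 2.49 TPM in +Dox, PECAM1 the most abundant and EMCN at 0. The megakaryocyte markers, 6 in number with ITGA2B the most abundant and PF4 at 0, summed to 7.66, 7.11 and 7.00 TPM in −Dox and 8.57, 9.90 and 8.98 TPM in +Dox. This sum did not overlap between the groups, and TUBB1, 1 of 3 tested, rose by 0.95 on the log2 scale (adjusted p = 4.81e-05, edgeR). The part of these markers in the result for LOXL4 was not tested. Of 6 lymphoid markers 2 were tested and none passed, nearly all of the sum being CD3D (49.9 TPM in −Dox and 44.2 TPM in +Dox on average), with MS4A1 at 0. The 12 markers of K562 cells were all tested and summed to between 21590 and 23164 TPM a library, HBG2 (fetal globin) the most abundant, so the libraries had the erythroid profile of the labelled line. Among them, TAL1 and KLF1 rose by 0.44 and 0.46 on the log2 scale, and HBZ, TFRC and LMO2 fell by 0.40, 0.34 and 0.20 (adjusted p from 8.34e-05 for TAL1 to 0.0219 for LMO2, edgeR). Their part in the values of the lysyl oxidase genes was not tested.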

How the data were processed

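PolyA RNA libraries (paired-end, 150 cycles) were quantified by the authors with Salmon 1.10.2, and an estimated count and a TPM value per transcript were deposited for each library. The index and strand setting are not given in the sources used here. The TPM values were scaled by the authors for effective transcript length. Transcripts were matched to GENCODE 44 (251612 of 252045, with or without version), summed per gene and, for counts, rounded. Unmatched transcripts held 0.125% to 0.138% of counts. The test was that of edgeR 4.0.16, over genes whose mean count exceeded 10 (quasi-likelihood, TMM factors 0.974 to 1.03, two-sided, Benjamini-Hochberg adjusted over all genes) in R 4.3.3. An exact permutation test of 3 against 3 cannot go below p = 0.1. DESeq2 1.42.0 was an alternative. Log2 CPM for the likeness measure used a prior count of 2. The edgeR step, and no other, was tested on simulated data, with the same spread setting for every gene. The members, gene lists and alternatives were chosen with earlier results of these data known. The naming rule took the members, PCBP1, each list's DEGs and up to 6 called members by p, the 5 genes most like LOXL4, neighboring or overlapping genes, and each marker list's most abundant gene. List genes below that rank or not called (PLOD2, P4HA2, COLGALT1, BMP1, ATP7A, ATOX1, COL1A1, COL1A2, COL3A1, ELN, CDH1) and the other markers were named after their values were seen. No replicate pair differed by as little as counting noise (chi-square per gene 8.16 to 17.5). The value of 1 marker gene is not reported here.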

Additional observations from a re-analysis of the deposited data

How the results depend on the processing

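Over the 12 other settings the log2 fold change of LOXL4 ran from 3.99 to 4.85 and that of LOXL2 from −1.50 to −0.98. The members were chosen on this contrast, so calls across settings are no support for them. Members called numbered 1 (LOXL4) in place of 2 with a transcript length offset, and 1 to 2 on leaving out each library, with 1 without −Dox replicate 3. With the length offset, 1 copper gene and 1 substrate gene had an adjusted p under 0.05 in place of 3 each, and leaving out each library gave 1 to 3 copper genes, with 1 without +Dox replicate 1. DEGs numbered 515 in place of 308 on all genes with any count (250 higher, 265 lower, 294 shared), and 231 to 313 on leaving out each library. The causes were not tested. Of the 5 genes most like LOXL4, 3 were shared with a minimum of 2 CPM and 4 with a prior count of 0.5. The order of levels was the same per kilobase of the main transcript and without each library. With a replicate block, 298 DEGs were called, and both called members kept their call. Deviations of same-numbered libraries correlated at 0.0003, −0.21 and −0.022 over 14331 genes. No library correlated best with its own number, and the numbers were not treated as pairs. Fits that left out 1 library kept 2 in that group. Low counts limit these results, with 11 to 30 counts of LOXL4 in a −Dox library and 0 to 8 of LOXL1 in any.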
